A study of Homo sapiens with 22 samples.

Results

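The integrated stress response joins several kinases to a single transcription factor, ATF4. Each kinase phosphorylates the translation initiation factor eIF2, which lowers protein synthesis in general while the ATF4 mRNA is translated more. In erythroid cells the kinase best known for this is EIF2AK1, the heme-regulated inhibitor, which is active when heme is short and so matches globin synthesis to the heme supply. ATF4 protein then raises genes of amino acid supply, glutathione breakdown, mTOR inhibition and feedback control. Because ATF4 is regulated largely at translation, mRNA levels describe the genes of the pathway and not the activity of a kinase.

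A list of 10 genes of this pathway was followed by symbol through both count tables of the study: EIF2AK1, ATF4, DDIT3, ASNS, TRIB3, CHAC1, PSAT1, PHGDH, SESN2 and DDIT4. All 10 were found among the 59087 gene names of each table, and all 10 passed the filter on low counts in both experiments. The cells were HUDEP-2, an immortalized line of human erythroid progenitors, taken during expansion (D0) or on day 6 of maturation in differentiation medium (D6). In the H2A.X experiment 2 WT libraries of each day were set against 3 from CRISPR/Cas9 subclones with the coding region of H2A.X deleted (KO), and in the BAZ1B experiment 3 WT against 3 from subclones with the first exon of BAZ1B, a kinase of H2A.X, deleted, 22 libraries in all. The KO headers carry the subclone number on both days and WT has replicate numbers only, so p-values measure only the spread between these libraries. Per the study's methods, the expansion medium held SCF, EPO, dexamethasone and doxycycline, and dexamethasone is not listed for the differentiation medium.

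Total counts were 11910141 to 21013004 per library in the H2A.X experiment and 33199408 to 41273244 in the BAZ1B experiment, and the biological coefficient of variation was 0.239 in the first and 0.0865 in the second. Reads of the targeted genes fell but were not lost: H2AFX, as the tables name the H2A.X gene, had 0.354 times the WT mean in KO at D0 and 0.347 times at D6, and BAZ1B 0.756 and 0.767 times, all called. Erythroid markers were detected in every group, and the 5 lymphocyte markers together never exceeded 25.1 normalized counts (counts scaled to a common effective library size). In the H2A.X experiment, log2 fold changes of KO against WT rose with transcript length across 12012 genes (Spearman's rho 0.545 at D0 and 0.602 at D6), and in the BAZ1B experiment rho was -0.0300 and 0.0522 across 12403 genes. Columns of 5 of the 6 H2A.X KO libraries carry the word Redo in their header, all but KO replicate 3 at D6, and no WT column does, so at D0 this mark and the genotype cannot be told apart.

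Promoters of the genes were searched on both strands for TGATGNAA, a short form of the site at which ATF4 binds together with C/EBP proteins. RefSeq promoters (GRCh38.p14, 250 bases before to 50 after each start) were at hand for 9 of the 10 genes, all but EIF2AK1, with 14 starts. The motif was in a window of ASNS and in 1 of CHAC1, and these sequences are shown because both genes rose with maturation in the results that follow. Capitals mark the motif. The ASNS stretch lies on the minus strand at chr7:97872458-97872487, with the motif at -68 from the RefSeq start, and the CHAC1 stretch on the plus strand at chr15:40953251-40953280, with the motif at -209 from its start and on the opposite strand. Both stretches are inside the gene spans of GENCODE 44, so they lie upstream of these RefSeq starts only.
ASNS: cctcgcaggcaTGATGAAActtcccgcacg
CHAC1: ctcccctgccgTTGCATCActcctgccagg
Of the 27305 genes in the same table, 4.46% held this motif in at least 1 promoter, beside 2 of the 9 genes here. A match is a run of letters in a fixed window, and no match in the other promoters says only that these letters are not in that window.

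Levels of the 10 genes differed widely per kilobase of transcript, as shown for WT of the BAZ1B experiment at D0. ATF4 stood highest, at 6556 ± 163 normalized counts per kilobase (SD, n = 3). Next came DDIT4, an inhibitor of mTOR signalling, at 2980 ± 129, EIF2AK1 at 2829 ± 13.6, and PSAT1, the aminotransferase of serine synthesis, at 2112 ± 33.2. A middle tier held CHAC1, which degrades glutathione, at 238 ± 18.1, DDIT3, the transcription factor CHOP, at 175 ± 21.6, TRIB3, a pseudokinase that restrains ATF4 and CHOP, at 122.4 ± 15.1, and SESN2, a leucine sensor that inhibits mTORC1, at 100.5 ± 6.17. ASNS, which makes asparagine, was at 21.0 ± 3.78, and PHGDH, the first enzyme of serine synthesis, at 3.97 ± 1.05 on 6 to 10 reads per library. Libraries of TRIB3 and SESN2 overlapped on this scale, and no other neighbours in the order did.

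**Figure D1:**
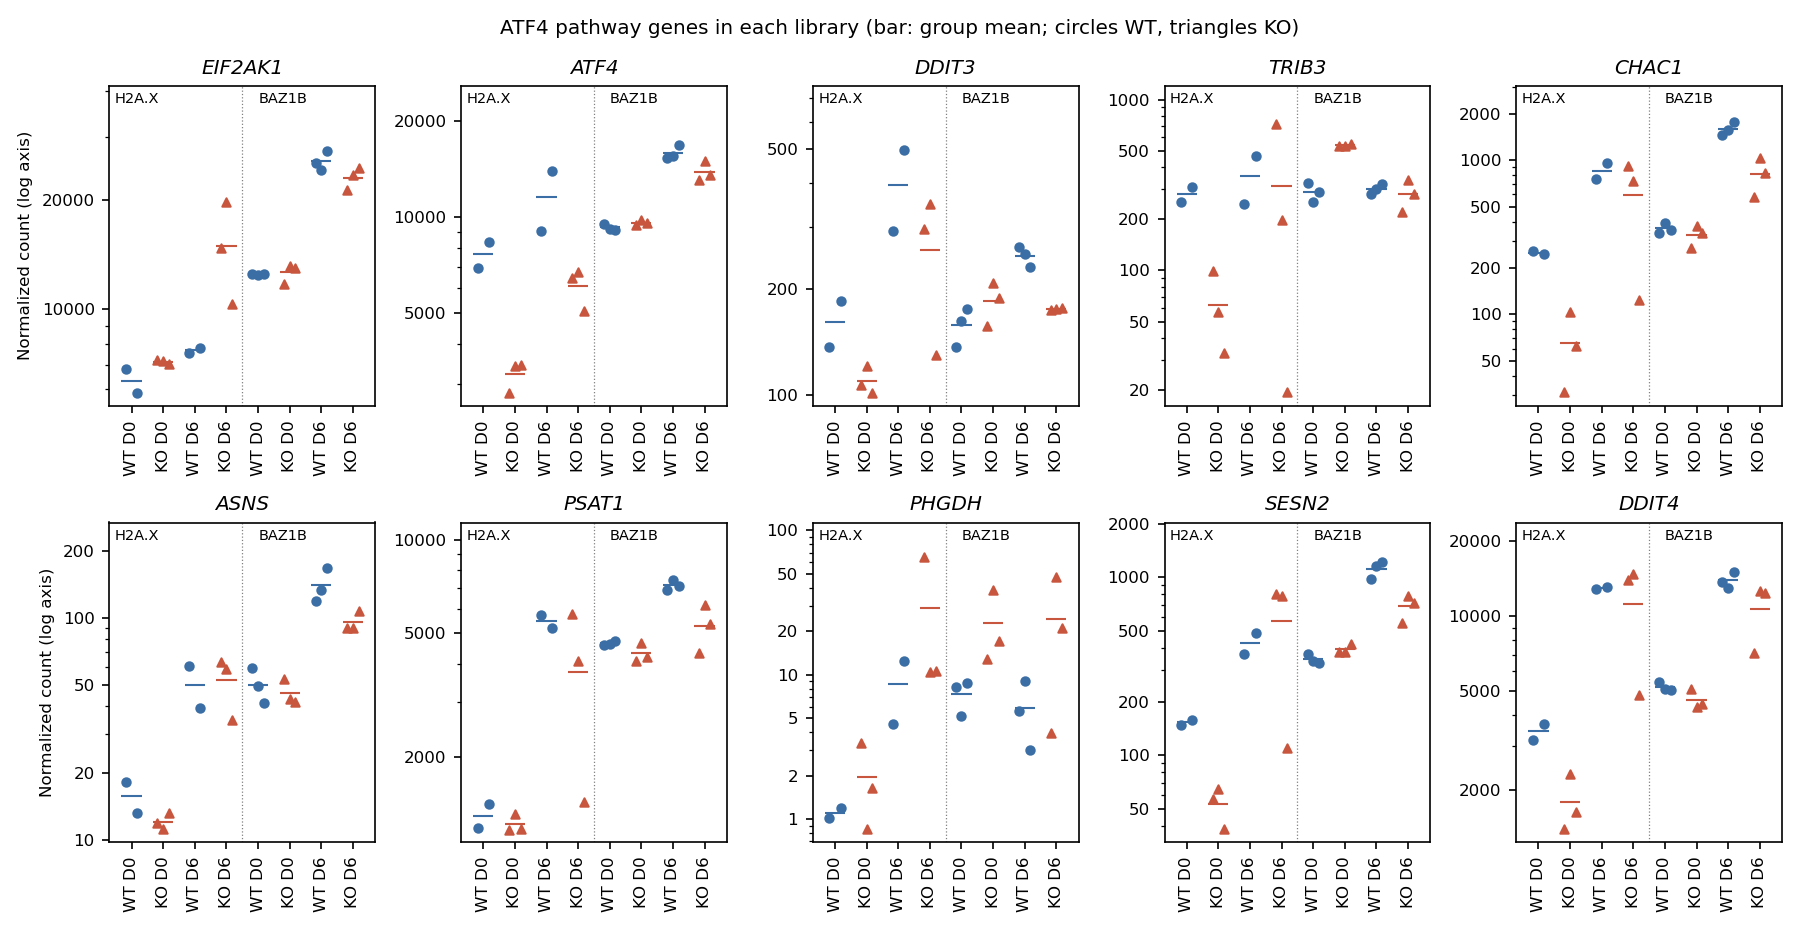
Normalized counts of the 10 genes on a log axis, with 1 panel per gene, 1 symbol per library (circles WT, triangles KO) and a bar at each group's mean; the left part of each panel is the H2A.X and the right part the BAZ1B experiment, which were normalized separately. CHAC1 and DDIT4 lie higher at D6 than at D0 in every group, and among the H2A.X KO libraries of D6 replicate 3 is the lowest for 9 of the 10 genes.

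In WT cells of the BAZ1B experiment, 8 of the 10 genes were higher at D6 than at D0, among them the kinase EIF2AK1, ATF4 itself and the genes for mTOR inhibition, glutathione breakdown and asparagine synthesis. No gene was called lower, and TRIB3 and PHGDH did not pass. Of all genes tested, 68.9% passed in this comparison and 33.5% were higher. The median log2 fold change was 0.91 over the 10 genes and -0.02 over all genes tested. Fold changes were tested by edgeR's quasi-likelihood method and called at a Benjamini-Hochberg adjusted p below 0.05 over all genes, and a value in parentheses with its SE is a log2 fold change unless named otherwise. In bulk RNA, fewer cells of a type and less RNA per cell cannot be told apart.

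Among the regulators, EIF2AK1 stood at 12527, 12413 and 12503 normalized counts at D0 and at 25429, 24231 and 27361 at D6 in WT (log2 fold change 1.04 with SE 0.06, adjusted p = 7.60e-09). ATF4 went from 9569, 9182 and 9156 to 15362, 15624 and 16872 (log2 fold change 0.78 with SE 0.05, adjusted p = 2.62e-08). DDIT3, whose protein can drive apoptosis under lasting stress, was at 137, 163 and 175 at D0 and at 263, 252 and 231 at D6 (log2 fold change 0.65 with SE 0.13, adjusted p = 0.000660). All 3 regulators were higher in each D6 library than in any D0 library. The share of all genes without overlap is given below only for BAZ1B KO against WT at D6 and for H2A.X WT between the days. In every other comparison, a lack of overlap describes the libraries of the named gene alone. TRIB3, the feedback inhibitor, overlapped between the days, at 252 to 324 and 279 to 318 (log2 fold change 0.05 with SE 0.14, adjusted p = 0.755).

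The target genes rose over a wider range. CHAC1 had 339, 392 and 353 normalized counts at D0 and 1465, 1576 and 1768 at D6 (log2 fold change 2.15 with SE 0.18, adjusted p = 1.91e-07). SESN2 went from 372, 340.3 and 331 to 978, 1155 and 1218 (log2 fold change 1.68 with SE 0.12, adjusted p = 6.20e-08). These 2 genes had the largest fold changes of the 10, followed by ASNS (1.49, SE 0.19) and DDIT4 (1.42, SE 0.17), again with no library of D6 within the range of D0. PSAT1 rose least, from 4606, 4629 and 4743 to 6915, 7421 and 7125 (log2 fold change 0.62 with SE 0.10, adjusted p = 7.59e-05). PHGDH stood on 3 to 10 reads in every WT library, too few for a fold.

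Other genes moved over the same days. DDIT4 is also known to respond to glucocorticoids, and 5 of 7 tested glucocorticoid-responsive genes were higher at D6 in WT (median log2 fold change 1.17). Erythroid markers took 0.293% to 0.362% of normalized counts at D0 and 2.29% to 2.65% at D6, with all 9 higher and none at 0. Mast cell and eosinophil markers summed to 17547 to 19094 normalized counts at D0 and 1127 to 1532 at D6, with all 6 tested lower and 1 of 8 at 0 on each day. The part of these in the higher levels of the called genes of the 10 was not tested.

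In BAZ1B KO, 7 of the 10 genes were higher at D6 and TRIB3 was lower, beside 67.7% of all genes passing the test, 33.2% higher and 34.5% lower. EIF2AK1 (0.87, SE 0.06), ATF4 (0.53, SE 0.05), DDIT4 (1.21, SE 0.17), ASNS (1.06, SE 0.19), CHAC1 (1.30, SE 0.18) and SESN2 (0.79, SE 0.12) had log2 fold changes above 0 with no overlap between the days. The share of all genes without overlap is not given for this comparison. PSAT1 was also called (0.29, SE 0.10, adjusted p = 0.0157), with overlapping libraries, and without KO replicate 2 of D6 it was not (0.17, adjusted p = 0.0827). TRIB3 went from 535, 537 and 552 normalized counts at D0 to 220, 339 and 281 at D6, without overlap and against the direction of the other genes (log2 fold change -0.96 with SE 0.14, adjusted p = 4.24e-05). DDIT3, called in WT, had 158, 209 and 189 at D0 and 174, 175 and 177 at D6 in KO (log2 fold change -0.08 with SE 0.13, adjusted p = 0.614).

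**Figure D2:**
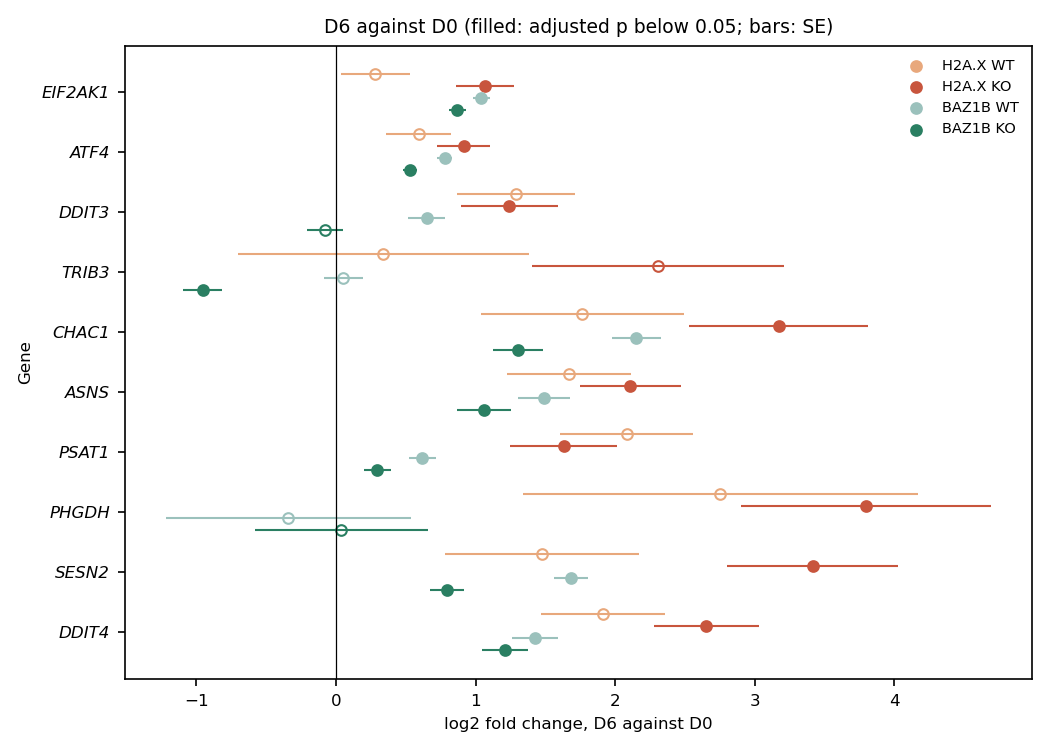
Log2 fold changes of D6 against D0 for the 10 genes in the WT and KO cells of both experiments, with bars of 1 SE; filled symbols passed the test at an adjusted p below 0.05 and open ones did not. Symbols lie to the right of 0 for EIF2AK1, ATF4, CHAC1, ASNS, PSAT1, SESN2 and DDIT4 in all 4 sets, and TRIB3 in BAZ1B KO lies to the left.

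At D6, 5 of the 10 genes were lower in BAZ1B KO than in WT, and none was called higher. These were CHAC1, SESN2, DDIT3, PSAT1 and ATF4. Of all genes tested, 12.8% passed and 5.97% were lower. The median log2 fold change of the 10 genes was -0.41, against 0.00 over all genes tested. In 7 of the 10, every KO library lay below every WT library, and 15.2% of all genes showed such a gap in that direction.

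CHAC1 had 1465, 1576 and 1768 normalized counts in WT and 579, 1028 and 828 in KO, 0.506 times the WT mean (log2 fold change -0.99 with SE 0.17, adjusted p = 0.00207). SESN2 had 978, 1155 and 1218 in WT and 554, 783 and 717 in KO (log2 fold change -0.71 with SE 0.12, adjusted p = 0.00183). DDIT3 had 263, 252 and 231 in WT and 174, 175 and 177 in KO (log2 fold change -0.50 with SE 0.13, adjusted p = 0.0237). The KO libraries of DDIT3 lay close together, while those of CHAC1 and SESN2 spread, with replicate 1 lowest.

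PSAT1 was at 6915, 7421 and 7125 in WT and 4341, 6194 and 5350 in KO (log2 fold change -0.43 with SE 0.10, adjusted p = 0.00991). The smallest of the 5 changes was that of ATF4, from 15362, 15624 and 16872 in WT to 13114, 14981 and 13585 in KO (log2 fold change -0.20 with SE 0.05, adjusted p = 0.0218). Neither gene overlapped between the genotypes. Leaving out a single D6 library removed the call of ATF4 in 3 of 6 cases (WT replicate 3 and KO replicates 1 and 3, adjusted p up to 0.0965) and that of DDIT3 in 5 of 6 (all but WT replicate 3, adjusted p up to 0.0861). ATF4 was also not called after correction for transcript length and GC content (-0.14, adjusted p = 0.0781).

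The remaining genes did not pass at D6. ASNS had 119, 134 and 168 normalized counts in WT and 90.2, 90.5 and 108 in KO (log2 fold change -0.55 with SE 0.18, adjusted p = 0.0687). DDIT4 had 13727, 12998 and 15086 in WT and 7098, 12616 and 12397 in KO (log2 fold change -0.38 with SE 0.16, adjusted p = 0.153), and without KO replicate 1 its log2 fold change was -0.16. In both genes the KO libraries lay below those of WT. EIF2AK1 overlapped between the genotypes (log2 fold change -0.15 with SE 0.06, adjusted p = 0.122), and so did TRIB3, with 220 to 339 in KO and 279 to 318 in WT. PHGDH had 4 to 41 reads in the KO libraries and 3 to 8 in those of WT.

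At D0, TRIB3 was the only gene of the 10 called between BAZ1B KO and WT, and it was higher in KO. Its normalized counts were 324, 252 and 289 in WT and 535, 537 and 552 in KO, 1.88 times the WT mean (log2 fold change 0.91 with SE 0.14, adjusted p = 0.00212). No KO library overlapped with WT, and the call held whichever of the 6 libraries of D0 was left out (log2 fold change 0.82 to 0.998). Of all genes tested at D0, 3.88% passed and 1.25% were higher. ATF4, at 9156 to 9569 in WT and 9456 to 9838 in KO, and EIF2AK1, at 12413 to 12527 and 11760 to 13183, overlapped between the genotypes. CHAC1, DDIT3, ASNS, PSAT1 and DDIT4 overlapped as well. SESN2 was at 331 to 372 in WT and 378 to 424 in KO (adjusted p = 0.542), and PHGDH had 6 to 10 reads in WT and 13 to 41 in KO (adjusted p = 0.284).

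**Figure D3:**
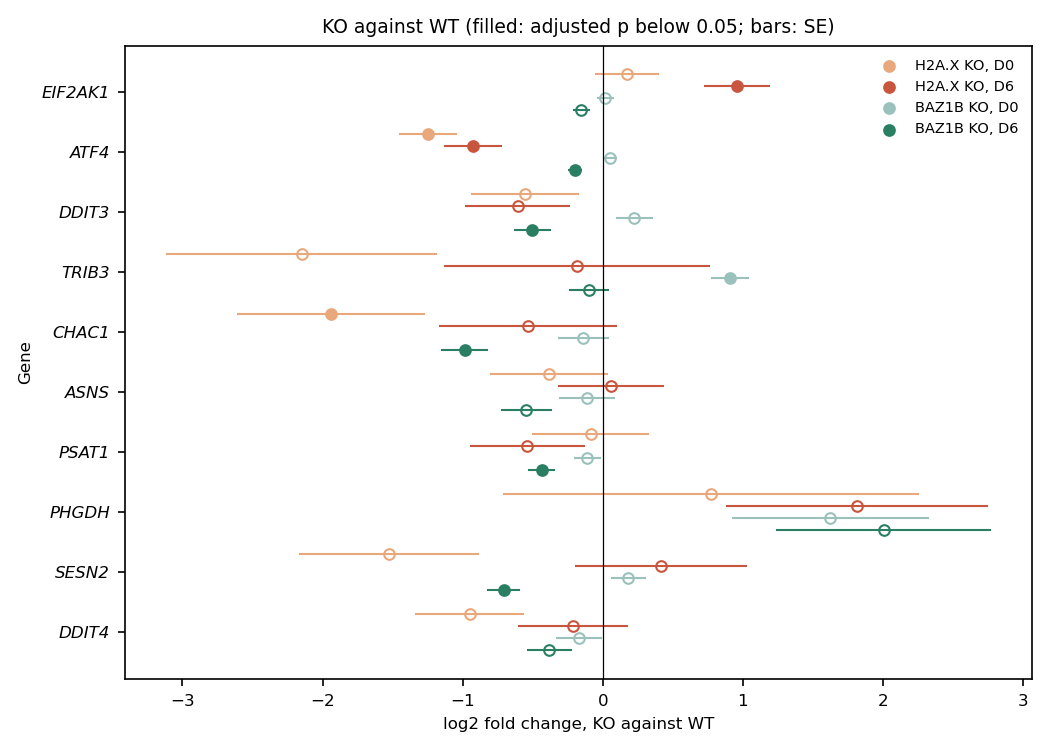
Log2 fold changes of KO against WT for the 10 genes at D0 and D6 of both experiments, with bars of 1 SE; filled symbols passed the test at an adjusted p below 0.05. In BAZ1B KO, TRIB3 is filled at D0, to the right of 0, and ATF4, DDIT3, CHAC1, PSAT1 and SESN2 are filled at D6, to the left; for each gene the bars of the H2A.X experiment are longer than those of the BAZ1B experiment.

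Whether the BAZ1B KO effect differed between the days was tested directly, as the log2 fold change at D6 minus that at D0. The difference passed for TRIB3 (-1.01, SE 0.20, adjusted p = 0.0199) and SESN2 (-0.89, SE 0.17, adjusted p = 0.0194), beside 2.47% of all genes, 0.893% in the lower direction. The calls of TRIB3 and SESN2 were both lost, with adjusted p between 0.0550 and 0.0643, when WT replicate 2 or 3 of either day or KO replicate 3 of D0 was left out.

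Lists of neighbouring genes of the pathway were counted in BAZ1B KO against WT at D6. Amino acid transport had 7 of 10 genes lower and none higher (median log2 fold change -0.47), and 6 or 7 lower with any 1 library left out. Its largest changes were SLC1A4, a transporter of neutral amino acids (-1.57, SE 0.29), SLC7A11, the cystine and glutamate exchanger (-0.97, SE 0.13), SLC38A1, a glutamine transporter (-0.55, SE 0.07), and SLC6A9, a glycine transporter (-0.50, SE 0.08). Of the ATF4 partners and related factors, 4 of 9 tested were lower, namely CEBPD (-2.71, SE 0.30), ATF3 (-0.76, SE 0.17), JUN (-0.76, SE 0.18) and CEBPG (-0.46, SE 0.10), a partner of ATF4 on DNA. GDF15, a secreted stress cytokine, was the only one of 12 other ATF4-responsive genes called (-1.34, SE 0.22).

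Of the 16 genes of eIF2 phosphorylation and its reversal, EIF2S2, the beta subunit of eIF2 (-0.21, SE 0.04), and PPP1R15B, a regulatory subunit of the eIF2 phosphatase (-0.20, SE 0.05), were lower, and none of the 4 eIF2 kinases was called. Of 15 enzymes of amino acid and one-carbon metabolism, 5 were lower (1 to 5 with any 1 library left out) and SHMT1 was higher (0.40, SE 0.06). Endoplasmic reticulum stress genes outside the ATF4 arm had 1 of 16 lower, HERPUD1 (-0.22, SE 0.06). With 1 library left out, the calls of JUN (WT replicate 2 of D6), PPP1R15B (WT replicate 3 of D6) and HERPUD1 (WT replicate 3 and KO replicates 1 and 3 of D6) were lost, and the other calls named here held.

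Markers also differed in BAZ1B KO at D6, where 5 of the 10 genes were lower. Erythroid markers took 1.86% to 2.07% of normalized counts in KO and 2.29% to 2.65% in WT, with 4 of 9 lower and none at 0, and 2 of 8 enzymes of heme synthesis were lower. With 1 library of the table left out, 2 to 5 of these markers and 0 to 5 of the heme enzymes were lower, with 0 enzymes without WT replicate 3 or KO replicate 1 of D6. Of the 7 glucocorticoid-responsive genes, 3 were lower, among them KLF9 (-0.60, SE 0.09) and DUSP1 (-0.28, SE 0.07), and 2 higher, SGK1 (0.32, SE 0.08) and FKBP5 (0.18, SE 0.05), with 2 to 3 lower and 0 to 2 higher when 1 library was left out. ITGA2B, the 1 megakaryocyte marker of 4 that could be tested, was lower (-1.59, SE 0.33), and the 4 summed to 53.4 to 179 normalized counts in KO and 312 to 389.9 in WT, with 2 at 0 in both. The part of these markers and lists in the lower levels of the called genes was not tested.

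At D0, when TRIB3 differed, the pathway lists held 1 called gene, SESN1 (-0.21, SE 0.05), whose call was lost in 8 of the 12 fits with 1 library left out. Erythroid markers took 0.410% to 0.464% of normalized counts in KO and 0.293% to 0.362% in WT at D0, with HBB higher (0.55, SE 0.11) and HBG2 (-2.44, SE 0.45) and HBA1 (-0.47, SE 0.09) lower, of 9 markers with 1 at 0 in KO. Also called were 2 of 6 mast cell and eosinophil markers, both higher, and 2 of 7 glucocorticoid-responsive genes, 1 in each direction. The part of these in the level of TRIB3 was not tested.

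In maturation of the WT cells, where 68.9% of all genes passed and 33.5% were higher, the same lists split. Amino acid transport had 7 of 10 genes higher, led by SLC6A9 (3.34, SE 0.09) and SLC1A4 (3.29, SE 0.32), and 2 lower, SLC38A1 (-2.34, SE 0.07) and SLC38A2 (-0.47, SE 0.07). Among the partners, ATF3 (3.26, SE 0.19) and CEBPB (1.19, SE 0.13) rose, and FOS (-3.46, SE 0.33) and CEBPD (-1.42, SE 0.21) fell. GDF15 rose (3.26, SE 0.25), as did PPP1R15A (1.26, SE 0.06), which brings the phosphatase to eIF2 and is itself a target of ATF4. Of the other eIF2 kinases, EIF2AK2 fell (-0.61, SE 0.11), and EIF2AK3 (-0.07, SE 0.06) and EIF2AK4 (-0.03, SE 0.06) did not pass. Endoplasmic reticulum stress genes of the other arms had 11 of 16 lower, among them the chaperone HSPA5 (-0.66, SE 0.08) and MANF (-1.24, SE 0.09), and 2 higher. All 8 enzymes of heme synthesis rose.

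**Figure D4:**
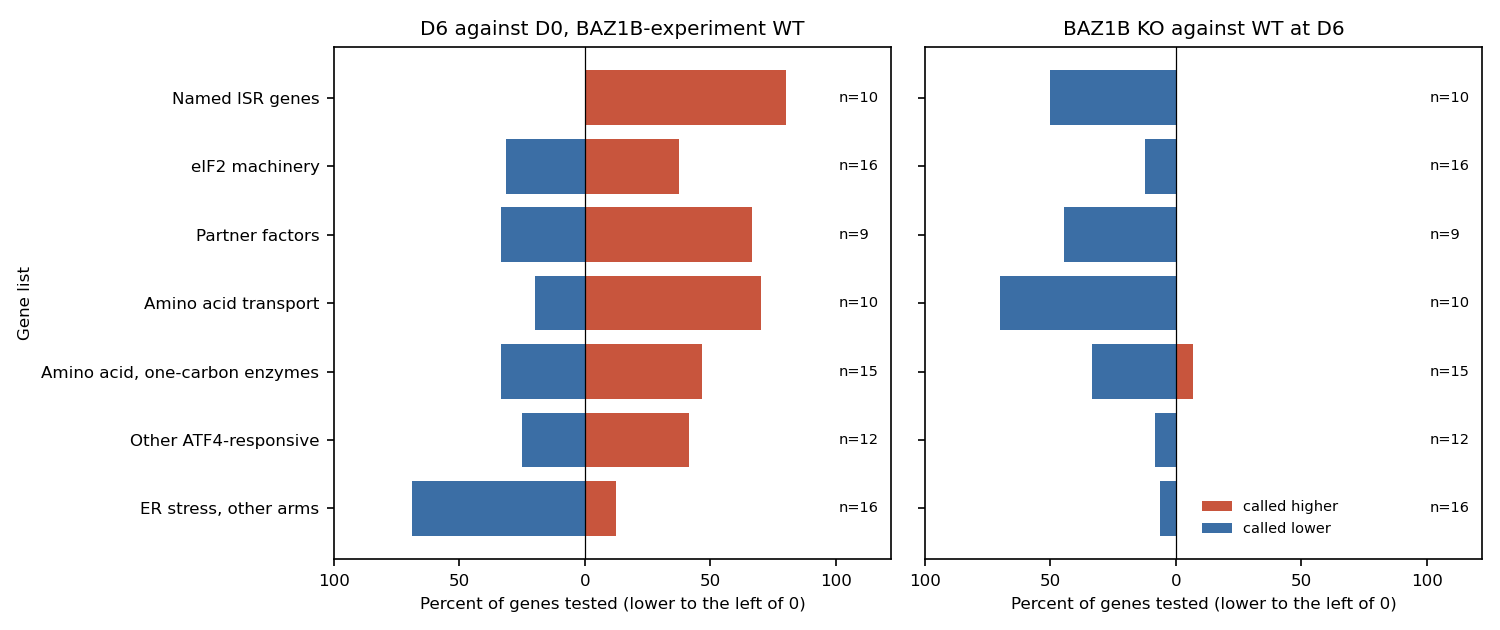
Percent of the tested genes of each list called higher (right of 0) or lower (left of 0) in the BAZ1B experiment, for D6 against D0 in WT and for KO against WT at D6, with the number tested beside each bar. Of the 10 named genes, 8 are higher in maturation and 5 lower in KO, and of the endoplasmic reticulum stress list 11 of 16 are lower in maturation. Of all genes tested, 68.9% passed in maturation, 33.5% as higher, and 12.8% passed in KO, 5.97% as lower.

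In the H2A.X experiment the spread between libraries was wider, and 1 library stood apart for these genes. At D6, KO replicate 3 was below both other KO libraries in 9 of the 10 genes, with a median of 31.2% of their mean. It was below both WT libraries in 8. The share of all genes with the same order was not counted. Over all genes tested, its Pearson's r with the mean of the other KO libraries of D6 was 0.973, against 0.977 for replicate 1 and 0.979 for replicate 2. TRIB3 had 715, 198 and 19.3 normalized counts in KO replicates 1 to 3, SESN2 806, 787 and 110.1, and CHAC1 916, 733 and 125. Globin genes took 3.09% of its counts, between the 2.43% and 4.34% of the other KO libraries of that day. It is the KO library without the word Redo in its header, and counts of calls are therefore given with and without it. It was singled out by low values in these same genes, so their calls without it follow in part from that choice.

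At D0, ATF4 and CHAC1 were lower in H2A.X KO and no gene of the 10 was called higher, beside 35.1% of all genes passing the test and 16.7% lower. ATF4 had 6947 and 8378 normalized counts in WT and 2810, 3423 and 3451 in KO, 0.421 times the WT mean (log2 fold change -1.25 with SE 0.21, adjusted p = 0.00552). CHAC1 had 256 and 248 in WT and 31.3, 103 and 62.5 in KO (log2 fold change -1.94 with SE 0.67, adjusted p = 0.0467). Libraries of the genotypes did not overlap in either gene, and how many of all genes were without overlap at D0 is not given. Leaving out WT replicate 2 removed the call of ATF4 (adjusted p = 0.0836), and that of CHAC1 was lost without any of the D0 libraries but KO replicate 2 and by DESeq2 (adjusted p = 0.0526).

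TRIB3, SESN2 and DDIT4 lay below WT in every KO library at D0 but did not pass. TRIB3 was at 249.7 and 309 in WT and 98.9, 56.7 and 32.9 in KO (log2 fold change -2.15 with SE 0.97, adjusted p = 0.106). SESN2 was at 149 and 158 in WT and 56.6, 64.4 and 38.7 in KO (log2 fold change -1.52 with SE 0.64, adjusted p = 0.0873), and DDIT4 at 3193 and 3698 in WT and 1393, 2326 and 1635 in KO (log2 fold change -0.95 with SE 0.39, adjusted p = 0.0816). In a fit of the D0 libraries alone these 3 genes were called too (adjusted p = 0.00771 for TRIB3, 0.00634 for SESN2 and 0.0140 for DDIT4). This made 5 of 10 lower, in a fit that called 5980 of 12599 genes, where the main fit called 4651 of 13236. Without KO replicate 3 of D6, whose spread enters the shared estimate, 5 were lower as well. The share of all genes called in that last fit is not given. DDIT3, at 101.2 to 121 in KO and 137 and 185 in WT, did not pass (adjusted p = 0.275), nor did ASNS (adjusted p = 0.494). PSAT1 overlapped between the genotypes, EIF2AK1 was at 6818 and 5850 in WT and 7042 to 7245 in KO (adjusted p = 0.565), and PHGDH had 1 to 4 reads in every D0 library.

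At D6, EIF2AK1 was higher in H2A.X KO and ATF4 lower, and no other gene of the 10 was called, beside 43.1% of all genes passing, 22.2% higher and 20.9% lower. EIF2AK1 had 7587 and 7822 normalized counts in WT and 14795, 19809 and 10331 in KO, 1.94 times the WT mean (log2 fold change 0.96 with SE 0.23, adjusted p = 0.0100). ATF4 had 9080 and 14031 in WT and 6450, 6732 and 5085 in KO (log2 fold change -0.92 with SE 0.21, adjusted p = 0.00740). Neither gene overlapped between the genotypes and the other 8 did, with no share of all genes given beside this. Both calls held without KO replicate 3 (log2 fold changes 1.20 and -0.78), in a fit that called 6656 of 13196 genes. SESN2, at 368 and 487 in WT, was also called, as higher, without that replicate (0.93, adjusted p = 0.00845) and not with it (0.41, SE 0.61). Without WT replicate 2 of D6, 152 of all genes were called in place of 5701. EIF2AK1 was not called without WT replicate 1 (adjusted p = 0.0505) or 2 (adjusted p = 0.0788), nor ATF4 without WT replicate 2 (-0.55, adjusted p = 0.131).

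The transcript of EIF2AK1 has 4411 bases and that of ATF4 1419. With each library corrected for length and GC content together, no gene of the 10 was called at D6. EIF2AK1 was then at a log2 fold change of 0.51, adjusted p = 0.113, and ATF4 at -0.36, adjusted p = 0.200. At D0 ATF4 was still called in that fit (-0.88, adjusted p = 0.0129), and CHAC1 was not (-1.55, adjusted p = 0.137).

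In H2A.X KO, 9 of the 10 genes, all but TRIB3, were higher at D6 than at D0, while 30.9% of all genes passed and 14.8% were higher. The median log2 fold change was 2.21 over the 10 genes and 0.02 over all. SESN2 went from 56.6, 64.4 and 38.7 normalized counts to 806, 787 and 110.1 (log2 fold change 3.41 with SE 0.61, adjusted p = 0.00258). CHAC1 rose from 31.3, 103 and 62.5 to 916, 733 and 125 (log2 fold change 3.17 with SE 0.64, adjusted p = 0.00479), and DDIT4 from 1393, 2326 and 1635 to 13991, 14818 and 4830 (log2 fold change 2.65 with SE 0.37, adjusted p = 0.000827). Each of these had every D6 library above every D0 library, the low replicate included. How many of all genes did so in H2A.X KO is not given, here or for the genes below.

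ASNS (2.11, SE 0.36), PSAT1 (1.63, SE 0.38), DDIT3 (1.24, SE 0.35), EIF2AK1 (1.07, SE 0.21) and ATF4 (0.92, SE 0.19) were also higher at D6 in H2A.X KO, again without overlap. The call of DDIT3 was lost without any 1 of 5 of the 6 libraries, all but KO replicate 3 of D6 (adjusted p up to 0.0820). PHGDH passed on 4, 1 and 2 reads at D0 and 71, 11 and 11 at D6 (adjusted p = 0.0103), too few at D0 for a fold. TRIB3 was at 98.9, 56.7 and 32.9 at D0 and at 715, 198 and 19.3 at D6 (log2 fold change 2.31 with SE 0.91, adjusted p = 0.0787). Without KO replicate 3 of D6 it was called (2.89, adjusted p = 0.00394), as in the fit with the replicate number as block (1.64, adjusted p = 0.0400). Of all genes, these fits called 4871 of 13196 and 5095 of 13236.

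In WT of the H2A.X experiment, edgeR called none of the 10 genes between the days and 2% of all genes, although 6 of the 10 had an unadjusted p below 0.05. DDIT4 had 3193 and 3698 normalized counts at D0 and 12801 and 13146 at D6 (log2 fold change 1.91 with SE 0.45, adjusted p = 0.0594). PSAT1 had 1179 and 1406 at D0 and 5727 and 5215 at D6 (log2 fold change 2.08 with SE 0.48, adjusted p = 0.0562). With the replicate number as block, PSAT1 (adjusted p = 0.0199), DDIT4 (adjusted p = 0.0162) and DDIT3 (1.26, adjusted p = 0.0373) were called, in a fit that called 1127 of 13236 genes. DESeq2 called these 3 and ASNS, beside 1047 of 12146 genes. Without KO replicate 3 of D6, through the shared spread, 6 were called, and the share of all genes in that fit is not given. CHAC1 went from 256 and 248 to 754 and 959, and ATF4 from 6947 and 8378 to 9080 and 14031. All genes except TRIB3 had each D6 library above each D0 library, as did 25.2% of all genes tested.

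Between the days, the H2A.X KO effect was called different for none of the 10 genes by edgeR or DESeq2, where edgeR called 1.34% of all genes and 1 of the 10, EIF2AK1, had an unadjusted p below 0.05. Its difference of log2 fold changes was 0.78, SE 0.32, adjusted p = 0.283, and that of SESN2 was 1.94, SE 0.90, adjusted p = 0.343. Without KO replicate 3 of D6 both were called, EIF2AK1 at 1.03, adjusted p = 0.0313 and SESN2 at 2.47, adjusted p = 0.00607. That fit called 851 of 13196 genes, where the main fit called 177 of 13236. KO replicate 3 had been singled out by its low values in these same genes.

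List calls in H2A.X KO against WT, here and for the markers below, are given without correction for transcript length. Fold changes of all genes rose with length there (Spearman's rho 0.545 at D0 and 0.602 at D6). Around the 10 genes, H2A.X KO at D0 had 4 of 10 tested partners lower, among them ATF3 (-3.36, SE 0.79), ATF5 (-1.82, SE 0.27) and CEBPB (-1.30, SE 0.41). FOS (2.81, SE 0.36) and ATF2 (1.20, SE 0.18) were the 2 higher. Of the transporters, SLC1A4 (-2.89, SE 0.89), SLC6A9 (-1.75, SE 0.39) and SLC43A1 (-0.69, SE 0.20) were lower and SLC38A1 (2.27, SE 0.51) and SLC38A2 (1.03, SE 0.26) higher. Without WT replicate 2 of D0, 77 of all genes were called in this comparison, and over the libraries left out 0 to 5 partners and 0 to 4 transporters were lower. Of the other eIF2 kinases, EIF2AK2, the kinase of double-stranded RNA, was higher in KO at D0 (1.56, SE 0.25) and D6 (1.77, SE 0.26), and so was EIF2AK4, the kinase activated by uncharged tRNA (0.74, SE 0.23 and 0.81, SE 0.23). EIF2AK3, the kinase of the endoplasmic reticulum, was higher at D6 (0.77, SE 0.28, adjusted p = 0.0490) and not called at D0 (0.75, SE 0.28). Each of these calls was lost without WT replicate 2 of the same day (adjusted p of EIF2AK2 then 0.0849 at D0 and 0.0545 at D6), EIF2AK4 was also lost without any 1 of the KO libraries of D0 at D0 and without KO replicate 1 of D6 at D6, and EIF2AK3 in 7 of 10 fits with 1 library left out.

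Markers moved with these values. Erythroid markers took 0.853% to 1.08% of normalized counts in H2A.X KO at D0 and 1.86% to 2.49% in WT, with 7 of 9 lower and none at 0, as were 7 of 8 enzymes of heme synthesis. With 1 library left out, 0 to 7 of the markers and 1 to 8 of the enzymes were lower, the fewest without WT replicate 2 of D0. From D0 to D6 in KO, where 9 of the 10 genes rose, 8 of the 9 erythroid markers (to 2.60% to 4.40%), all 8 heme enzymes and 4 of 7 glucocorticoid-responsive genes were higher. At D6, with 2.90% to 4.56% in WT, edgeR and DESeq2 called 0 erythroid markers between KO and WT, 1 had an unadjusted p below 0.05, and without KO replicate 2 of D6 edgeR called 3 lower. Mast cell and eosinophil markers summed to 3679 to 7368 normalized counts in KO and 1821 to 2456 in WT at D0, and to 54.2 to 237 and 2541 to 4069 at D6. Of these 8 markers 1 was at 0 in KO at D0 and 3 in each of the other groups. ITGA2B was higher in KO at D0 (2.39, SE 0.48), where the 4 megakaryocyte markers, 2 of them at 0, summed to 575 to 1330 normalized counts against 153 to 169.8 in WT, and it fell from D0 to D6 in KO (-3.80, SE 0.44). The part of any of these lists in the levels of the 10 genes was not tested.

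Across the 12 libraries of the BAZ1B experiment, ATF4 and EIF2AK1 had a Pearson's r of 0.99 on log2 CPM, and across the 10 of the H2A.X experiment 0.09. With ATF4, CHAC1 had an r of 0.97 and 0.87, SESN2 0.98 and 0.75, DDIT4 0.96 and 0.78, DDIT3 0.66 and 0.84, and TRIB3 -0.41 and 0.69, in the same order. These are descriptions over libraries that share days and genotypes. By the lower r of both experiments, the genes most like ATF4 in pattern were POLR2I (0.983 and 0.976), CDC34 (0.975 and 0.975) and FKBPL (0.973 and 0.971), and those most like ASNS were NATD1 (0.956 and 0.953), C5orf66 (0.965 and 0.949) and KCTD6 (0.954 and 0.948).

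On GRCh38, by the GENCODE 44 annotation, EIF2AK1 spans 6022247 to 6059175 and ASNS 97851677 to 97872542 on the minus strand of chromosome 7, DDIT3 57516588 to 57521737 on the minus strand of chromosome 12, and ATF4 39519695 to 39522683 on the plus strand of chromosome 22. CHAC1 spans 40952962 to 40956512 of chromosome 15, SESN2 28259518 to 28282491 and PHGDH 119648411 to 119744218 of chromosome 1, PSAT1 78297125 to 78330093 of chromosome 9, DDIT4 72273919 to 72276036 of chromosome 10, and TRIB3 362835 to 397559 of chromosome 20, all on the plus strand. The body of EIF2AK1 overlaps AIMP2 and ANKRD61, and that of DDIT3 overlaps MARS1 and MBD6, each on the opposite strand, and without strand their reads cannot be told apart. ATF4, ASNS and PSAT1 each have 4 pseudogenes by name in the tables, which could take reads of the parent gene, so their levels are less certain than those of the other genes.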

How the data were processed

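RNA-Seq of 22 HUDEP-2 libraries was deposited by the authors as raw counts per gene in 2 tables, 1 per experiment. The submitters' processing notes name STAR 2.7.0f, Subread 1.6.4 with featureCounts, GENCODE 31, hg38 and DESeq2 1.22.1. The labels and the study's methods differ on the library kit (stranded or not) and read length. Replicates were not pooled.

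Each table was fitted separately in edgeR 4.0.16 (R 4.3.3, limma 3.58.1) on all its libraries, with 1 coefficient per genotype and day, genes kept by a count minimum of 10 and a total of 15 (13236 and 13879 genes), TMM scaling, two-sided quasi-likelihood F tests and Benjamini-Hochberg adjustment. The procedure was tested on simulated data. Normalized counts are counts scaled to a common effective library size. Depth per library limits low genes such as PHGDH. Groups came from the sample labels.

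The 10 genes and the lists were chosen with earlier results of these data known. From each other list, up to 4 genes per direction called, with the largest log2 fold changes and a mean of at least 50 normalized counts could be named, and genes named beside these were chosen after their values were seen. Of 8 glucocorticoid-responsive genes 7 were tested, and PER1 was not analysed here. Genes most like ATF4 or ASNS were taken by the lower r of both experiments at a mean of at least 5 CPM, without genes of chromosome Y. Gene positions and lengths came from GENCODE 44.

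KO headers carry a subclone number on both days, and WT libraries a replicate number only. Deviations of same-numbered D0 and D6 libraries from their group means correlated at 0.292 to 0.566 in the H2A.X experiment. There the numbers were therefore taken to pair the days. In the BAZ1B experiment they correlated at -0.00193 (WT replicate 2) to 0.568, and the WT numbers were not taken to pair the days. The main fits used no pairing in either experiment, and the replicate block did. KO and WT libraries of the same number share only the number. Alternatives were DESeq2 1.42.0, other scaling, no filter, no globin genes, a replicate block, correction for length and GC content, the compared groups alone, stricter cutoffs (adjusted p below 0.001 and log2 fold change beyond 1.5), and leaving out each library. List counts under these were added after seeing the data.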

Additional observations from a re-analysis of the deposited data

Results flagged for a closer look

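The BAZ1B KO effect on TRIB3 and SESN2 was called different between the days by edgeR's quasi-likelihood test of the difference itself, beside 2.47% of all genes. Both calls were lost in 5 of 12 fits with 1 library left out, with adjusted p between 0.0550 and 0.0643. For TRIB3 the difference, D6 less D0, was -1.01 on the log2 scale (adjusted p = 0.0199). KO was above WT at D0 and overlapped with it at D6. For SESN2 the difference was -0.89 (adjusted p = 0.0194). KO lay below WT in 3 of 3 libraries at D6 and above WT in 3 of 3 at D0, where it was not called.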

How the results depend on the processing

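Of 64 single-gene results (called, near the threshold or printed with a fold change, PHGDH left out unless called) under 920 alternatives, 2 turned direction, both close to 0 and not called: TRIB3 between the days in BAZ1B WT ranged from -0.0351 (without WT replicate 2 of D0) to 0.14, and DDIT3 in BAZ1B KO from -0.18 to 0.0199 (without KO replicate 2 of D0). Other scaling or leaving out globin genes changed no call among the 64. Of the 10 genes, the number called in H2A.X KO against WT at D0 was 2, and 5 with no filter or the compared groups alone, 1 with the replicate block, with the length and GC correction or with both, and 0 to 2 with 1 library of D0 left out (5 without KO replicate 3 of D6). At D6 it was 2, with 0 under the length and GC correction, 1 when the block was added, and 0 to 3 with 1 library of D6 left out. Between the days in H2A.X WT it was 0, with 4 by DESeq2, 5 with no filter, 3 with the replicate block, 2 with the block and correction and 4 in the compared groups alone. Leaving out 1 of the H2A.X WT libraries left 1 in a group, so no count is given for those fits. In H2A.X KO the number called between the days was 9, with 8 to 10 when 1 library was left out. The H2A.X difference between days had 0, 3 with no filter, and 0 to 2. BAZ1B KO against WT had 1 at D0, 3 with no filter, 1 to 1 with a library left out, and 5 at D6, 3 with the block and correction, 3 to 4 with 1 library of D6 and 5 to 6 with 1 of D0 left out. BAZ1B maturation had 8 in WT (8 to 8) and 8 in KO (7 to 8). The BAZ1B difference between days had 2, with 5 by DESeq2 or with no filter, 6 with the replicate block (CHAC1, PSAT1, ATF4 and DDIT3 added), 3 with block and correction, and 0 to 5. Between days, the block pairs WT libraries of D0 and D6 by number, which was not taken to hold in the BAZ1B experiment. The stricter cutoffs left 0 in every comparison except 1 in H2A.X KO maturation and 2 in BAZ1B WT maturation. The motif TGATGCAAT was in 0 of the promoters in place of 2. Over all genes, the count moved from 265 to 1047 by DESeq2 and 1127 with the block in H2A.X WT maturation, from 177 to 670 and 552 in the H2A.X difference, and from 343 to 709 and 718 in the BAZ1B difference. With no filter it rose to 1271, 1007 and 987 in these and from 539 to 1201 in BAZ1B KO at D0. With block and correction together these 3 were 962, 675 and 779. In H2A.X KO at D6 it went from 5701 to 2769 with the length and GC correction, 3689 with the block added and 3731 in the compared groups alone, which gave 503 in H2A.X WT maturation, and the correction gave 283 in the H2A.X difference. In the BAZ1B experiment 10 of 12 libraries correlated best with their own number on the other day, all but those of WT replicate 2. The WT samples there are taken to share only a number. KO numbers name a subclone on both days, and the main fits did not use this pairing. In comparisons of KO with WT the block alone changed 1 call, that of CHAC1 in H2A.X KO at D0 (-1.45, adjusted p = 0.0933). There the block joined KO and WT libraries that share only a number, so it cannot show whether a call is stable. Causes of these shifts were not tested. Depth limits PHGDH, and groups of 2 or 3 libraries limit every p.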
